A study of Cucumis sativus with 12 samples.

Results

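The cucumber genes CsaV3_7G027860 and CsaV3_3G012910 are described in the deposited table as a heat stress transcription factor A-6b-like protein (isoform X2) and as heat stress transcription factor A-6b. They are 2 of the 24317 genes of the table, and 2 of its 21 genes described as heat stress factors. They were picked by name with their levels over the cold known, so their own values are given as a description, without a test. CsaV3_7G027860 spans 1524 bases on the plus strand of chromosome 7 (17491759 to 17493282), and CsaV3_3G012910 spans 2815 bases on the minus strand of chromosome 3 (9871823 to 9874637), in the deposited table's coordinates, for which the sources used here name no genome build. No other gene of the table overlaps either of them.

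Heat stress factors are transcription factors that bind heat shock elements, repeated short motifs in the promoters of heat shock protein genes. Class A factors carry an activation region and switch these chaperone genes on, whereas classes B and C lack it, and several class B factors act as repressors in Arabidopsis. In Arabidopsis, HSFA6b is induced by abscisic acid, the hormone of water deficit, and binds the promoter of DREB2A, a regulator of dehydration and heat responses.

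Messenger RNA was sequenced from seedling leaves of cucumber (Cucumis sativus) that were fully expanded. All seedlings had received COS, chitosan oligosaccharide, as a spray of 50 mg/L. COS consists of short fragments of chitosan, a sugar polymer derived from crustacean or fungal chitin. The seedlings were kept warm for 24 h at 28 °C by day and 18 °C by night with a 12 h photoperiod. They were then moved to 12 °C by day and 6 °C by night, and leaves were taken after 0, 3, 12 and 24 h, with 3 libraries for each duration and 12 in all. Every group analysed here carries the spray, and groups sprayed with water are not used here. Time since the spray and plant age moved together with time in the cold and cannot be told apart from it. The hour of sampling, and with it light and the day or night temperature, may also have differed between 0, 3 and 12 h. Where it did, it cannot be told apart from time in the cold either. In a single course of sampling, 0 h and 24 h fall at the same hour. Whether the 3 libraries of each duration came from separate plants is not stated in the labels, so the spread between them may be partly technical.

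The libraries held 62.7 to 81.6 M units of estimated count (M, 10 to the power of 6), which correspond to about 16.9 to 21.9 M fragments at the spacing of 3.72 units between the lowest values. Of 42 leaf markers (photosystem, chlorophyll-binding and Rubisco small subunit genes), 40 passed the filter on low values, and their summed FPKM (fragments per kilobase of transcript and M fragments) was 34178 to 36467 at 0 h, 47494 to 48595 at 3 h, 58833 to 63462 at 12 h and 29519 to 32717 at 24 h. Markers of other tissues moved too. The 14 phloem markers summed to 276 to 493, 310 to 482, 357 to 562 and 504 to 1364 FPKM over the same durations, with CsaV3_1G046430 at 0 throughout. The 32 epidermis and guard cell markers summed to 293 to 384, 337 to 352, 226 to 236 and 188 to 200 FPKM, with CsaV3_4G001570 and CsaV3_5G006600 at 0 throughout. The 6 root-type markers summed to 41 to 43.9, 52.5 to 63.8, 78.4 to 84.3 and 12.8 to 29.9 FPKM. Of these, 2 passed the filter (CsaV3_1G038260 and CsaV3_2G007090), both described as nicotianamine synthases, and the casparian strip genes did not. This sum therefore need not reflect root tissue. Replicate 1 of the 24 h group lay apart from the other libraries of its duration, with 504 FPKM of phloem markers against 1289 and 1364, and 12.8 FPKM of root-type markers against 29.9 and 29.4. The part of these shifts in the levels of the pair was not tested, and in whole leaves a change in the number of cells of a type cannot be told apart from a change in RNA per cell.

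The A-6b-like gene CsaV3_7G027860 was high early in the cold. Its levels in the 3 libraries of 0 h were 4.18, 4.36 and 5.2 FPKM. After 3 h they were 73.9, 65.9 and 63.1 FPKM, the highest of the series. After 12 h they were 19.9, 16.7 and 20.1 FPKM, and after 24 h they were 19.3, 32.0 and 34.8 FPKM. All 9 libraries taken in the cold thus lay above all 3 taken before it, the 3 h libraries lay above every other library, and the 12 h and 24 h libraries overlapped. The means were 4.58 ± 0.541, 67.6 ± 5.62, 18.9 ± 1.92 and 28.7 ± 8.28 FPKM (SD, n = 3). The level at 3 h was 14.8 times that at 0 h, a fitted log2 fold change of 3.88 (SE 0.20). It was still 4.13 times the 0 h level at 12 h (2.09, SE 0.19) and 6.27 times at 24 h (2.70, SE 0.19). The 12 h mean was 28% of the 3 h mean, a log2 difference of -1.78 (SE 0.18).

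The wide spread at 24 h, a coefficient of variation of 28.9%, reflected replicate 1, whose 19.3 FPKM lay within the range of the 12 h libraries. Without that library the log2 fold change of CsaV3_7G027860 at 24 h was 2.92 against 0 h and 0.83 against 12 h, compared with 2.70 and 0.60 (SE 0.18) with it. The counts behind these levels were 325 to 486 units at 0 h and 4774 to 5437 units at 3 h, about 87 to 131 and 1283 to 1462 fragments.

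The A-6b gene CsaV3_3G012910 was low at 0 h and 3 h and high at 12 h and 24 h. It stood at 1.13, 1 and 1.72 FPKM at 0 h and at 0.927, 1.20 and 1.13 FPKM at 3 h, and these groups overlapped. After 12 h it stood at 76.1, 82 and 71.2 FPKM, and after 24 h at 66.8, 64.4 and 71.8 FPKM. Every library of 12 h and 24 h lay far above every library of 0 h and 3 h, and the 12 h and 24 h groups overlapped narrowly. The means were 1.28 ± 0.386, 1.08 ± 0.141, 76.4 ± 5.44 and 67.7 ± 3.75 FPKM (SD, n = 3).

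Between 3 h and 12 h the mean level of CsaV3_3G012910 differed by 70.5 times, a log2 fold change of 6.18 (SE 0.18), which was the 16th largest increase among the 16432 genes tested for that step. Against 0 h the fitted log2 fold changes were -0.25 (SE 0.18) at 3 h, 5.93 (SE 0.18) at 12 h and 5.76 (SE 0.18) at 24 h, and 24 h differed from 12 h by -0.17 (SE 0.14). The 3 h difference was 0.02 without replicate 3 of the 0 h group. The low levels rested on few molecules, about 27 to 64 fragments a library at 0 h and 3 h, against about 2111 to 2770 at 12 h and 24 h.

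Many other genes also separated pairs of durations without overlap. Shares were counted for pairs only, and not for the separations across more durations described above. Of all tested genes, 35.0% had every 3 h library above every 0 h library, as CsaV3_7G027860 did. For 12 h and 24 h against 0 h, where both genes did, the shares were 36.1% and 33.8%. From 3 h to 12 h, 31.2% of genes lay higher without overlap, as CsaV3_3G012910 did, and 37.1% lay lower, as CsaV3_7G027860 did. By size, the increase of CsaV3_7G027860 at 3 h was the 121st largest of 16432, and those of CsaV3_3G012910 at 12 h and 24 h were the 64th and 157th largest.

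**Figure D1:**
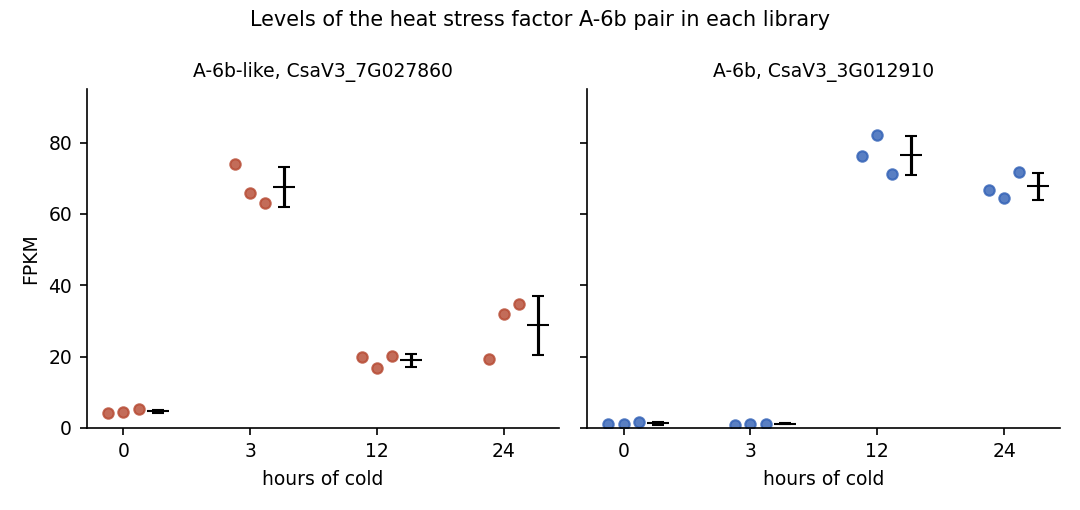
FPKM of the A-6b-like gene CsaV3_7G027860 (left) and the A-6b gene CsaV3_3G012910 (right) in each library against hours of cold; points are libraries, and the bar beside them is the mean with its SD (n = 3). The left gene peaks at 3 h with 63.1 to 73.9 FPKM, and the right gene is at 0.927 to 1.72 FPKM until 3 h and at 64.4 to 82 FPKM from 12 h.

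The order of the pair turned over between 3 h and 12 h. Within a library, the FPKM of CsaV3_7G027860 was 3.01 to 4.34 times that of CsaV3_3G012910 at 0 h and 55 to 79.7 times at 3 h. At 12 h the A-6b gene was instead 3.54 to 4.91 times as high as the A-6b-like gene, and at 24 h 2.01 to 3.46 times. On the scale of log2(FPKM + 1), the difference of the A-6b-like gene from the A-6b gene was 1.30 ± 0.12 at 0 h, 5.04 ± 0.21 at 3 h, -1.96 ± 0.24 at 12 h and -1.25 ± 0.43 at 24 h (SD, n = 3). The summed level of both moved less after the first step. It was 5.31 to 6.92 FPKM at 0 h, 64.2 to 74.8 at 3 h, 91.3 to 98.7 at 12 h and 86.1 to 107 at 24 h.

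The pair made up a larger part of the class A transcripts in the cold than before it. The 11 class A genes of the table, the pair included, summed to 129 to 147 FPKM at 0 h and to 229 to 256, 257 to 271 and 239 to 277 FPKM at 3, 12 and 24 h. The pair made up 3.6% to 5.13% of that sum at 0 h, 27.3% to 29.3% at 3 h, 33.7% to 38.4% at 12 h and 35.3% to 38.5% at 24 h. At 3 h nearly all of it was CsaV3_7G027860, with 26.8% to 28.8% of the class A sum, against 0.361% to 0.523% for CsaV3_3G012910. At 12 h these shares were 6.5% to 7.62% and 26.3% to 31.9%. Among all 21 heat stress factors the pair made up 0.79% to 1.08% at 0 h and 15.6% to 20.7% in the cold libraries.

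By mean level among class A genes, CsaV3_7G027860 held rank 6 at 0 h, next to A-2 (CsaV3_2G025510), whose range overlapped with its own. It held rank 2 at 3 h, below A-7a (CsaV3_2G013880) with 80.2 ± 5.55 FPKM and without overlap, and rank 5 at 12 h and 24 h. CsaV3_3G012910 held rank 9 at 0 h and rank 10 at 3 h. It was the highest class A gene at 12 h, where its range overlapped that of A-7a (70.8 ± 7.59 FPKM), and at 24 h, where it lay clear of A-7a (38.1 ± 4.44 FPKM). Relative to all tested genes, the level of CsaV3_7G027860 lay at the 32.5th percentile at 0 h and the 91.3th at 3 h, and that of CsaV3_3G012910 at the 6.73th percentile at 3 h and the 92.5th at 12 h.

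**Figure D2:**
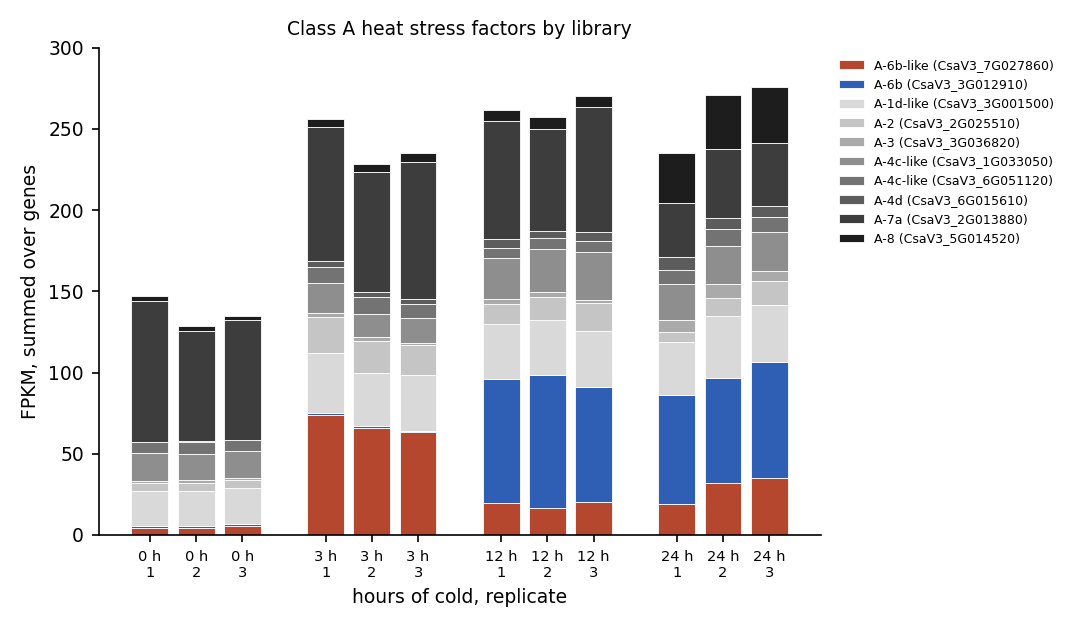
Stacked FPKM of class A heat stress factors in each library, grouped by hours of cold; colours mark the A-6b-like gene (red) and the A-6b gene (blue), and greys the others. The A-7a isoform X1 gene CsaV3_2G001400, which did not pass the filter, is left out. The red segment is widest at 3 h, and the blue segment is wide only at 12 h and 24 h, where it is the tallest class A segment in mean level.

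The next gene along chromosome 7 followed the A-6b-like gene. CsaV3_7G027870, described only as a hypothetical protein, starts 360 bases after CsaV3_7G027860 on the same strand and spans 219 bases (17493643 to 17493861). It stood at 1.32, 1.77 and 2.83 FPKM at 0 h, at 38.1, 35.1 and 28.1 at 3 h, at 7.52, 8.33 and 7.87 at 12 h and at 17.6, 24.3 and 22.4 at 24 h. In every library its FPKM was 0.315 to 0.911 times that of CsaV3_7G027860. Its fitted log2 fold changes against 0 h were 4.03 (SE 0.30), 2.01 (SE 0.29) and 3.44 (SE 0.29) at 3, 12 and 24 h. They rest on few fragments, since the 0 h libraries held 11, 15 and 27 units of estimated count. Between the flanking genes LOC101222496 and LOC101222735 the deposited table has 3 genes, the third being protein indeterminate-domain 9, whereas the RefSeq list of the assembly Cucumber_9930_V3 has the 2 protein-coding genes LOC101208010 and LOC101208253. Whether CsaV3_7G027860 and CsaV3_7G027870 are parts of the same transcript was not tested, so no p-value is given for the latter.

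The other neighbours took different courses. CsaV3_7G027850, an uncharacterized gene 6322 bases before the A-6b-like gene on the opposite strand, fell by 1.13 on the log2 scale at 12 h and by 1.04 at 24 h (edgeR adjusted p = 3.35e-05 and 5.46e-05). Beside the A-6b gene, dymeclin (CsaV3_3G012900) stood at 3.9, 5.99, 3.99 and 4.26 FPKM over 0, 3, 12 and 24 h. On its other side CsaV3_3G012920, a dioxygenase of the methionine salvage cycle, stood at 250, 195, 221 and 398 FPKM, and so neither showed the step of CsaV3_3G012910 between 3 h and 12 h.

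The remaining heat stress factors rose more often than they fell. Of the 19 others in the table, 15 passed the filter of at least 1 FPKM in at least 3 libraries. Of those 15, 8 rose and 1 fell at 3 h against 0 h (edgeR, adjusted p below 0.05), while 29.4% of all tested genes rose and 28.3% fell. At 12 h 10 rose and 1 fell, against 34.4% and 33.0% of all tested genes. At 24 h 12 rose and 3 fell, against 36.2% and 37.9%. Their median log2 fold changes were 0.44, 0.76 and 1.47, where those of all tested genes were 0.00, 0.00 and -0.03. These 3 comparisons share the 0 h libraries. From 3 h to 12 h, when the pair changed over, 4 of the 15 rose and 2 fell, against 27.9% and 27.6% of all tested genes, and from 12 h to 24 h 7 rose and 4 fell, against 24.5% and 27.4%.

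Among class A activators, A-2 (CsaV3_2G025510), which prolongs the heat response in Arabidopsis, was the one other member highest at 3 h with a change above 2 on the log2 scale. It stood at 4.7, 4.61 and 4.58 FPKM at 0 h and at 22.3, 19.7 and 18.3 FPKM at 3 h, without overlap. It rose by 2.11 (SE 0.26, edgeR adjusted p = 2.99e-05), and remained above 0 h by 1.69 (SE 0.26) at 12 h and 1.27 (SE 0.26) at 24 h, where its 3 libraries spread from 5.92 to 15.2 FPKM. A-2 overlaps CsaV3_2G025490 in the table, and without a stated strand setting the reads of such a pair cannot be told apart.

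A-4d (CsaV3_6G015610) stood at 0.284, 3.46, 5.1 and 7.13 FPKM over the 4 durations and rose at each, by 3.57 (SE 0.47), 4.18 (SE 0.47) and 4.66 (SE 0.48). Without replicate 2 of the 0 h group these values were 4.39, 5 and 5.49. A-8 (CsaV3_5G014520, overlapping CsaV3_5G014530) rose late, from 2.83 ± 0.427 FPKM at 0 h to 32.9 ± 2.27 at 24 h, by 3.59 (SE 0.12, edgeR adjusted p = 1.31e-10), after 0.88 and 1.34 at 3 h and 12 h. A-3 (CsaV3_3G036820, overlapping CsaV3_3G036830), which acts downstream of DREB2A in Arabidopsis, rose by 0.72 (SE 0.16) at 12 h and by 2.14 (SE 0.16) at 24 h, reaching 7.29 ± 1.36 FPKM.

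The other tested class A members differed from 0 h by less than 1 on the log2 scale at every duration. A-1d-like (CsaV3_3G001500), of the group of master regulators of the heat response, rose by 0.67, 0.69 and 0.75 (SE 0.07 each) at 3, 12 and 24 h, from 21.9 ± 0.193 to between 34.1 and 35.3 FPKM. The A-4c-like gene CsaV3_1G033050 rose by 0.76 at 12 h and 0.54 at 24 h, and the A-4c-like gene CsaV3_6G051120 by 0.47 at 3 h and 0.49 at 24 h. A-7a (CsaV3_2G013880), the most abundant class A gene before the cold with 76.0 ± 9.91 FPKM, fell by 0.94 (SE 0.12, edgeR adjusted p = 1.24e-05) at 24 h, and its log2 differences from 0 h were 0.08 (SE 0.11) at 3 h and -0.05 (SE 0.11) at 12 h.

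Against 0 h, classes B and C held the largest rise (C-1-like, 5.36 at 12 h) and the largest fall (C-1) among the other factors. B-2b-like (CsaV3_3G016950) stood at 8.88, 9.65 and 11.9 FPKM at 0 h, 44.9 to 59.2 at 3 h, 45.9 to 48.7 at 12 h and 231 to 275 at 24 h. It rose by 2.34 (SE 0.13), 2.27 (SE 0.13) and 4.72 (SE 0.14). B-2a-like (CsaV3_6G050100) rose at 3 h by 2.78 (SE 0.55) and at 24 h by 4.61 (SE 0.57), while its 12 h difference of 1.20 (SE 0.54) did not pass the test (edgeR adjusted p = 0.0689).

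B-3-like (CsaV3_3G040700) was under 0.5 FPKM until 12 h and reached 3.77 ± 0.703 FPKM at 24 h, a rise of 4.85 (SE 0.45). Its smaller rise at 12 h, 1.44 (SE 0.44), was not called without replicate 1 of the 12 h group, where it was 0.81. B-4-like (CsaV3_4G034470) fell at 24 h by 2.27 on the log2 scale (SE 0.36), from 1.56 to 0.309 FPKM. The factor HSF24 (CsaV3_6G043240), the name of a class B factor in tomato, rose by 1.47 (SE 0.17) at 24 h. Its rises of 0.41 at 3 h and 0.53 at 12 h ended under 8 and 2 of 21 other settings, in each case including the fit without replicate 1 of the 0 h group.

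Of class C, C-1-like (CsaV3_1G024170) was the family member nearest in course to the A-6b gene. It stood at 0.38, 0.383 and 0.595 FPKM at 0 h, at 0.385, 0.551 and 0.394 at 3 h, at 16.3, 19.5 and 18.3 at 12 h and at 10.2, 13.0 and 15.4 at 24 h. It rose by 5.40 (SE 0.22) from 3 h to 12 h (edgeR adjusted p = 5.23e-09), and its difference at 3 h was -0.04 (SE 0.22). C-1 (CsaV3_2G002270) took the opposite way. It was the most abundant heat stress factor before the cold, with 484 to 524 FPKM, and stood at 83.2 to 98.1 at 3 h, 134 to 143 at 12 h and 11.2 to 35.1 at 24 h. It fell by 2.47 (SE 0.30), by 1.81 (SE 0.30) and by 4.53 (SE 0.33) on the log2 scale, and without replicate 1 of the 24 h group the last value was -5.12.

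The factors not tested were low throughout. B-4b-like (CsaV3_1G043540) and B-3 (CsaV3_4G011850) had no counts in any library. The B-4 gene CsaV3_2G026600 stayed under 0.1 FPKM in mean, and A-7a isoform X1 (CsaV3_2G001400) was at 0.254 FPKM at 0 h and 2.36 ± 1.58 FPKM at 24 h. Of the 15 tested factors other than the pair, 8 had their highest mean at 24 h, where 26.7% of all tested genes had theirs, and 3 at 3 h, 2 at 12 h and 2 at 0 h, against 21.8%, 18.1% and 33.4%.

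**Figure D3:**
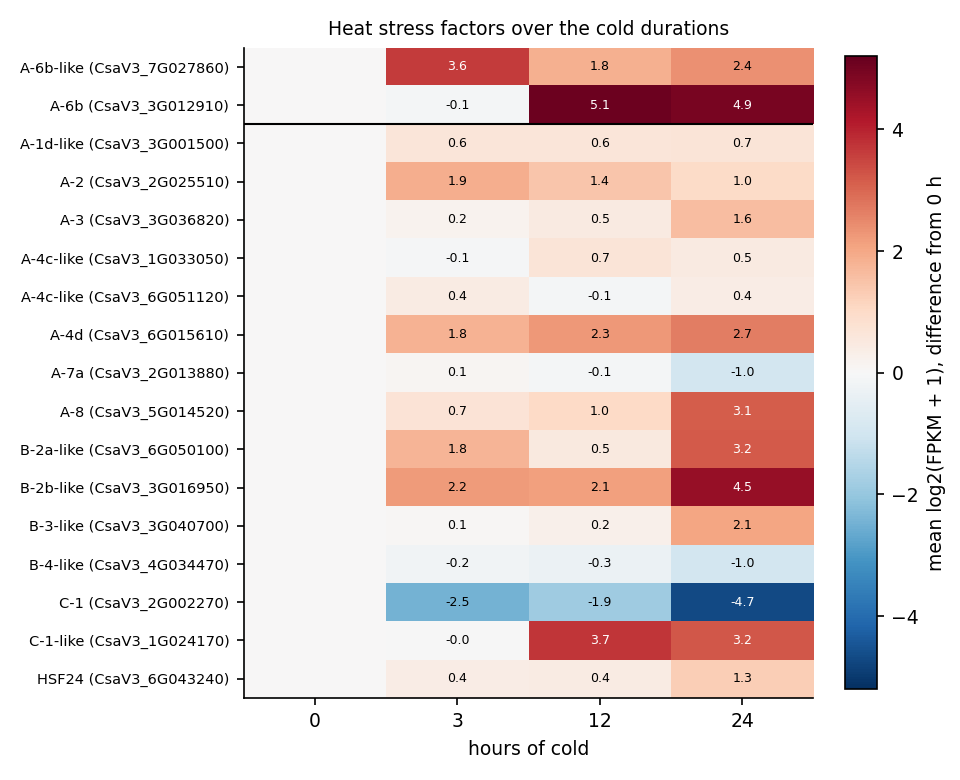
Mean log2(FPKM + 1) of each tested heat stress factor as the difference from its 0 h mean, by hours of cold (red higher, blue lower), with the A-6b pair above the line. The A-6b-like gene is the darkest cell at 3 h and the A-6b gene the darkest at 12 h, while at 24 h B-2b-like, and on the falling side C-1, come close to it.

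Genes on the list of heat shock proteins were called higher more often than lower against 0 h. Of its 50 genes, 43 were tested. The list includes 3 co-chaperones, helpers of the chaperones, of which 2 were tested. At 3 h 29 rose and the other 14 were not called, where 29.4% of all tested genes rose. At 12 h 26 rose and 5 fell, and at 24 h 23 rose and 11 fell, where 34.4% and 36.2% of all tested genes rose and 33.0% and 37.9% fell. The medians over the 43 were 0.86, 0.92 and 1.14 on the log2 scale. From 3 h to 12 h, when the order of the A-6b genes turned over, 16 rose and 11 fell with a median of 0.11, against 27.9% and 27.6% of all tested genes. From 12 h to 24 h 6 rose and 10 fell with a median of -0.04, against 24.5% and 27.4%. The genes were sorted into classes by their names after the lists had been drawn up, since some names had been caught by the pattern of another class.

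HSP90 chaperones, which hold client proteins such as signalling kinases in shape, rose in most members. Of 7 tested, 5 rose at 3 h and 6 at both 12 h and 24 h, where 29.4%, 34.4% and 36.2% of all tested genes rose. Heat shock cognate protein 80 (CsaV3_1G038710) stood at 46.5, 151, 535 and 611 FPKM over the 4 durations, and the related CsaV3_1G038690 at 26.0, 136, 333 and 414. The HSP83 genes CsaV3_3G017480 and CsaV3_3G017490 overlap each other in the table, and their highest means were at 3 h and at 12 h. The first stood at 2.43, 8.46, 4.43 and 7.3 FPKM and the second at 2.77, 2.63, 12.7 and 12.3 FPKM. CsaV3_3G017480 rose by 1.80 (SE 0.39) at 3 h. Its rise of 0.92 at 12 h ended under 15 of 21 other settings, and its rise of 1.64 at 24 h was 1.03 without replicate 3 of that group. The co-chaperone HOP (hsp70-Hsp90 organizing protein 3-like, CsaV3_3G003080), which passes clients from HSP70 to HSP90, rose by 1.58, 2.37 and 2.40 (SE 0.15, 0.16 and 0.16).

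HSP70 chaperones, which bind unfolded stretches of proteins, are represented by 12 tested genes. Of these, 10 rose at 3 h, 7 rose and 1 fell at 12 h, and 7 rose and 4 fell at 24 h, where 29.4%, 34.4% and 36.2% of all tested genes rose and 33.0% and 37.9% fell at 12 h and 24 h. CsaV3_4G024840 stood at 64.9 ± 8.13, 499 ± 27.7, 1439 ± 37.6 and 2277 ± 249 FPKM (SD, n = 3), rises of 2.94, 4.53 and 5.19 against 0 h (SE 0.10, 0.11 and 0.11). Heat shock cognate 70 (CsaV3_5G026520), with 11.3, 65.8, 53.6 and 44.9 FPKM, was the gene of the heat shock protein list nearest in course to the A-6b-like gene. Of the HSP100 disaggregases, which pull proteins out of aggregates, mitochondrial ClpB4 (CsaV3_4G036670) rose by 1 (SE 0.13) on the log2 scale at 3 h, and chloroplastic ClpB3 (CsaV3_3G026720, overlapping CsaV3_3G026710) fell by 0.70 at 12 h and by 0.96 at 24 h (SE 0.11 each). ClpB1 (CsaV3_1G002820) had no counts in any library.

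Small heat shock proteins, which keep unfolding proteins from clumping, had members called in both directions. Of 20 tested, 11 rose at 3 h, 11 rose and 3 fell at 12 h, and 9 rose and 6 fell at 24 h, where 29.4%, 34.4% and 36.2% of all tested genes rose and 33.0% and 37.9% fell at 12 h and 24 h. The 17.3 kDa class I gene CsaV3_1G035830 stood at 8.68, 21.7, 133 and 252 FPKM, rises of 1.32 (SE 0.33), 3.99 (SE 0.35) and 4.91 (SE 0.36). The chloroplastic-like CsaV3_3G002770 rose by 2.68, 4.01 and 4.68, to 163 ± 68.0 FPKM. The 15.4 kDa class V gene CsaV3_1G010860 had the late step of the A-6b gene, with 8.16 and 8.89 FPKM at 0 h and 3 h and 67.4 and 88.3 at 12 h and 24 h. The class I genes CsaV3_5G008690 and CsaV3_5G008700 fell at 24 h by 3.16 and by 1.70 on the log2 scale. The cognate 80, cognate 70, 15.4 kDa and 17.8 kDa genes and HSP83 CsaV3_3G017490 were chosen for description after their values were seen.

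**Figure D4:**
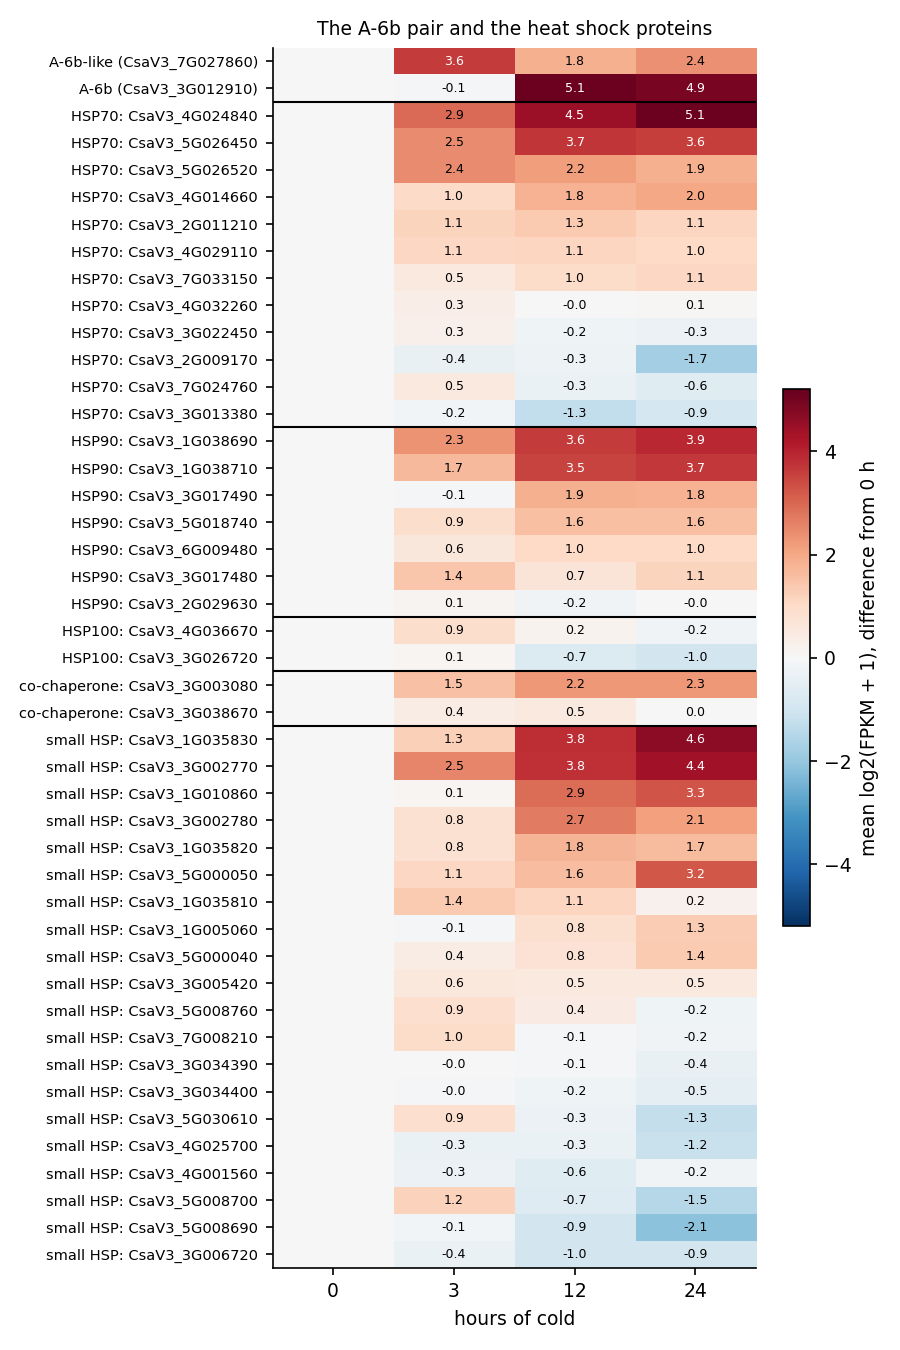
Mean log2(FPKM + 1) of the A-6b pair (top) and of the 43 tested heat shock proteins and co-chaperones as the difference from the 0 h mean, by hours of cold, grouped by class (red higher, blue lower). In the HSP70, HSP90 and small HSP classes the darkest cells are at 12 h and 24 h, and the lower rows of the HSP70 and small HSP classes turn blue at 24 h.

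For the lists that follow, the shares of all tested genes to read the counts against are the same: 29.4% rose and 28.3% fell at 3 h, 34.4% and 33.0% at 12 h, and 36.2% and 37.9% at 24 h. Of 51 DnaJ proteins tested, which bring clients to HSP70, 21 rose and 13 fell at 3 h, 22 rose and 17 fell at 12 h, and 28 rose and 15 fell at 24 h, with medians of 0.16, 0.12 and 0.39 on the log2 scale. The DnaJ homolog subfamily B member 6-like gene CsaV3_5G028590 stood at 0.152, 0.25 and 0 FPKM at 0 h, at 1.40 to 1.75 FPKM at 3 h, at 390 to 433 at 12 h and at 450 to 636 at 24 h, and so, like the A-6b gene, was far higher from 12 h on. Its fitted rise at 12 h, 11.68 on the log2 scale, was 12.56 without replicate 2 and 11.02 without replicate 3 of the 0 h group. DnaJ 11-like (CsaV3_2G015850) fell by 3.92 (SE 0.46) at 3 h and rose by 2.63 (SE 0.40) at 24 h. In this list and those that follow, other tested genes can share the description of a named gene, and these are not described.

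Of 16 chaperonins, the barrels in which proteins fold, 6 rose and 3 fell at 3 h, 12 rose and 1 fell at 12 h, and 12 rose and 2 fell at 24 h, with medians of 0.15, 0.60 and 0.69. The 10 kDa chaperonin-like gene CsaV3_5G028420 rose by 1.33 (SE 0.16) at 3 h, chaperonin 60 alpha 2 (CsaV3_1G046240) by 1.74 (SE 0.17) at 12 h and mitochondrial CPN60-2 (CsaV3_2G012300) by 1.94 (SE 0.14) at 24 h.

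Among 10 tested genes of kinds known as heat stress factor targets in Arabidopsis, 5 rose and 4 fell at 3 h, 6 rose and 2 fell at 12 h, and 6 rose and 3 fell at 24 h, where 29.4%, 34.4% and 36.2% of all tested genes rose and 28.3%, 33.0% and 37.9% fell. Their medians were 0.17, 0.95 and 0.79. Galactinol synthases make the sugar galactinol, the first step to the raffinose oligosaccharides of stressed leaves. Galactinol synthase 1-like (CsaV3_5G031520) stood at 0.83, 0.263 and 0.331 FPKM at 0 h, 13.2, 9.95 and 11.9 at 3 h, 4.61, 5.47 and 4.63 at 12 h and 2.84, 3.08 and 11.9 at 24 h. It rose by 4.62 (SE 0.58), 3.42 (SE 0.57) and 3.7 (SE 0.57). Without replicate 1 of the 0 h group these were 5.25, 4.05 and 4.33, and without replicate 3 of the 24 h group the last was 2.71. Galactinol synthase 2-like (CsaV3_1G015730) rose by 2.93 (SE 0.41), 2.58 (SE 0.41) and 3.50 (SE 0.42), to 58.1 ± 34.6 FPKM at 24 h.

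Of 7 tested DREB factors, 3 rose and 1 fell at 3 h, 5 rose at 12 h and 6 at 24 h, with the rest not called, where 29.4%, 34.4% and 36.2% of all tested genes rose. Their medians were 0.87, 2.61 and 3.54. The DREB2A-like gene CsaV3_4G026790 (overlapping CsaV3_4G026780) stood at 2.58 ± 0.323, 13.6 ± 1.20, 23.6 ± 1.60 and 39.8 ± 3.25 FPKM. It rose by 2.40, 3.24 and 4 on the log2 scale (SE 0.12 each), and was named for the largest called change of its list at 12 h. CsaV3_4G026910 and CsaV3_6G012590 carry the same description and were tested, but are not described here. In Arabidopsis HSFA6b binds the promoter of DREB2A, and which of these genes corresponds to DREB2A was not tested. DREB2C (CsaV3_6G002010) rose by 2.58, 2.61 and 2.32 (SE 0.11, 0.11 and 0.10) and so differed less between durations. DREB1B-like (CsaV3_5G005890), of the cold-response branch of the family, rose at 24 h, by 5.34 (SE 0.62), from 0.384 to 15.3 FPKM.

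The abscisic acid list mixes genes of synthesis, breakdown, reception and response. Its name pattern also caught isopropylmalate enzymes, which do not belong to that pathway (tested: CsaV3_3G021690, CsaV3_3G049730, CsaV3_4G001800 and CsaV3_5G004400). Its counts and medians are therefore those of a mixed list. Of its 31 tested genes, 16 rose and 7 fell at 3 h, 13 rose and 7 fell at 12 h, and 10 rose and 13 fell at 24 h, with medians of 0.36, 0.20 and -0.05. The 24 h counts lay near the 36.2% and 37.9% of all tested genes that rose and fell. NCED5 (CsaV3_1G032340), of the enzyme family that limits abscisic acid synthesis, stood at 0.117, 0 and 0.131 FPKM at 0 h and at means of 1.99, 8.79 and 17.8 FPKM in the cold, rising at each duration (edgeR adjusted p = 2.99e-05, 6.04e-07 and 1.41e-07). The receptor gene PYL4-like (CsaV3_4G026530) stood at 0.524, 7.77, 1.25 and 46.9 FPKM, rises of 3.87 (SE 0.27), 1.30 (SE 0.28) and 6.52 (SE 0.28), and fell by 2.57 (SE 0.24) between 3 h and 12 h. PYL4 (CsaV3_6G001990) was listed at 0 in the first and the third library of 0 h and stood at 11.3, 22.6 and 21.1 FPKM at 24 h.

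The genes whose course was most like that of each A-6b gene were found over the 4 durations, among the 12692 tested genes whose mean reached 5 FPKM in some duration, 8849 of them annotated. Likeness was the root mean square difference between genes in mean log2(FPKM + 1) relative to 0 h, over the 3 cold durations, and smaller values are nearer. For CsaV3_7G027860, whose own values were 3.62, 1.84 and 2.37, the nearest annotated gene was galactinol synthase 1-like (0.37). Next came a crocetin glucosyltransferase-like gene (CsaV3_6G001040, 0.40), which adds sugar to a carotenoid product and went from 0.0417 to 14.4 FPKM at 3 h. The light-response regulator HY5 (CsaV3_3G046530, 0.48) stood at 1.94, 31.5, 16.4 and 11.3 FPKM. The cytokinin-activating enzyme LOG1 (CsaV3_6G013990, 0.49) stood at 28.1, 310, 132 and 89.1 FPKM, and a serine/threonine protein kinase (CsaV3_4G037140, 0.55) at 1.04, 14.3, 6.15 and 5.99 FPKM. Each of these named genes was highest at 3 h and stayed above its 0 h mean.

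For CsaV3_3G012910, with own values of -0.12, 5.09 and 4.92, the nearest gene of all was thiamine thiazole synthase (CsaV3_3G005340, 0.20), an enzyme of vitamin B1 synthesis in the chloroplast. It stood at 50.3 ± 5.11, 40.3 ± 5.03, 1765 ± 96.0 and 1335 ± 476 FPKM (SD, n = 3), and so ran at far higher levels than the A-6b gene. The putative demethylase JMJD5 (CsaV3_1G042600, 0.61, overlapping CsaV3_1G042590) stood at 0.297, 1.42, 56.7 and 37.1 FPKM. The F-box protein CsaV3_7G032050 (0.64) stood at 0.467, 0.551, 25 and 29.8 FPKM. A pentatricopeptide repeat protein (CsaV3_7G004370, 0.65) and the ethylene-responsive factor CRF2-like (CsaV3_5G002210, 0.72) followed, the latter at 1.17, 3.34, 52.8 and 53.6 FPKM. At 3 h, where the A-6b gene differed by -0.25, JMJD5, the pentatricopeptide gene and CRF2-like had already risen, by 2.27, 1.95 and 1.52 (SE 0.56, 0.29 and 0.15). Thiamine thiazole synthase (-0.32) and the F-box gene (0.23) were not called then. With fitted log2 fold changes in place of log2(FPKM + 1), 1 of the 5 named genes of the A-6b-like gene and 2 of the 5 of the A-6b gene were again among the nearest 5. The crocetin glucosyltransferase-like gene, at 0 to 0.0867 FPKM at 0 h, then moved from rank 2 among annotated genes to rank 8514, with a difference of 4.61. Galactinol synthase 1-like, at 0.263 to 0.83 FPKM at 0 h, moved from rank 1 to rank 53 (1.05). The kinase CsaV3_4G037140 moved from rank 5 to rank 1 (0.31). Which gene is nearest to the A-6b-like gene thus depends on the pseudocount.

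By the same measure the A-6b genes lay 3.22 from each other. Counted from CsaV3_7G027860, that put its partner at rank 9610 of the 12692 genes, and counted from CsaV3_3G012910 at rank 1521. Nearer to CsaV3_7G027860 among the heat stress factors and heat shock proteins were heat shock cognate 70 (0.77), A-4d (1.09), HOP (1.24) and A-2 (1.30). Nearest to CsaV3_3G012910 among these were the 17.3 kDa small heat shock protein (1.09), C-1-like (1.26), heat shock cognate protein 80 (CsaV3_1G038710, 1.57) and the 15.4 kDa small heat shock protein (1.59). Unlike the A-6b-like gene, A-4d and HOP had their highest mean at 24 h. The pseudocount also shrinks the changes of genes that are low at 0 h, such as A-4d (0.284 FPKM) and C-1-like (0.453 FPKM).

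**Figure D5:**
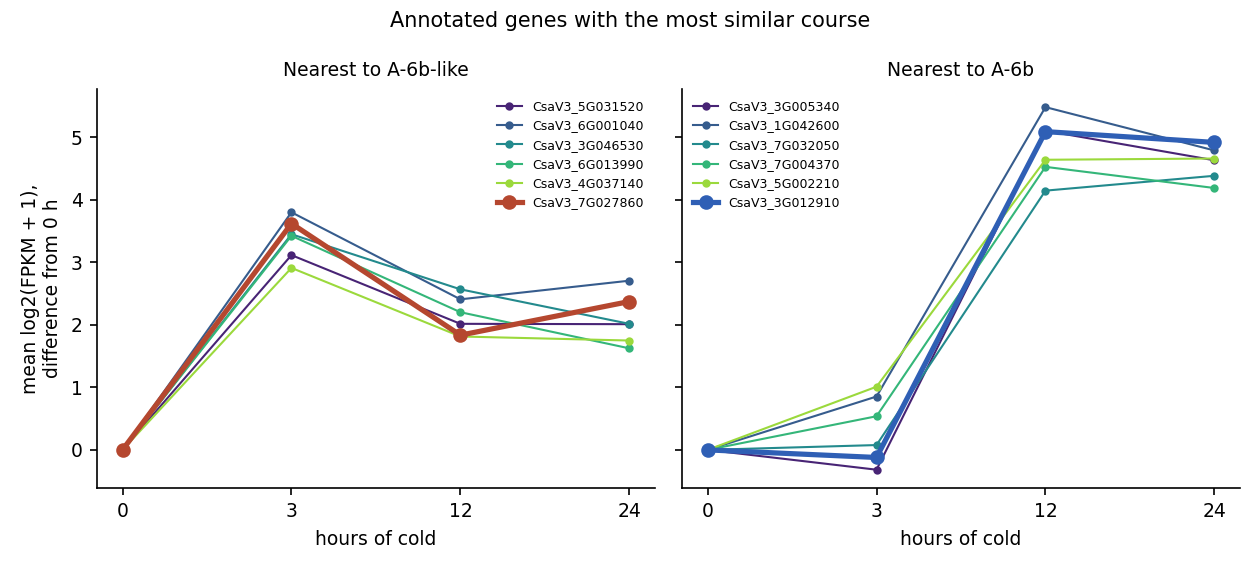
Mean log2(FPKM + 1) as the difference from 0 h against hours of cold, for the A-6b-like gene with its 5 nearest annotated genes (left, thick red line) and the A-6b gene with its own 5 (right, thick blue line). All lines on the left peak at 3 h, and those on the right lie near 0 or slightly above it at 3 h and above 4 at 12 h and 24 h.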

How the data were processed

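Per the labels' protocols, leaf RNA was isolated with Trizol and made into Illumina cDNA libraries. The submitters' processing notes name cutadapt 1.9 and FastQC, and the series design text names HISAT2 for mapping. How genes were counted, with which annotation, build and strand setting, is not given in the sources. Per the file headers, the authors deposited counts per gene, which were treated here as estimated counts. These are whole numbers, and the low ones lie near multiples of 3.72. The FPKM values were made by the authors and deposited beside them, per the file headers. There 0.0001 stands for each of 61048 counts of 0 and was read as 0.

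Estimated counts were tested with edgeR 4.0.16 (R 4.3.3), quasi-likelihood, TMM scaling, in 1 fit of all 12 libraries with a mean per duration, two-sided, with Benjamini-Hochberg adjustment over the 16432 genes that reached 1 FPKM in 3 or more libraries (99.84% of counts). The biological coefficient of variation was 17.2%. Genes with an adjusted p below 0.05 were called. The SE of a fitted log2 fold change, also for the A-6b pair, is its absolute value divided by the square root of the F statistic of that fit. The test was run on simulated counts as a check of the code. These lacked the spacing of the deposited counts and had far fewer changed genes, so they do not gauge its error rate here. The A-6b genes and all gene lists, which are patterns on the table's descriptions, were chosen with earlier results of these data known. Genes are named as every tested heat stress factor, the called gene of each list with the largest change against 0 h and a mean of at least 5 FPKM, and the 5 annotated genes nearest in course. Alternatives used limma 3.58.1 and DESeq2 1.42.0, and plots matplotlib 3.10.9.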

Additional observations from a re-analysis of the deposited data

How the results depend on the processing

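The counts of heat stress factors and heat shock proteins called stayed within 1.5 times of those reported under every alternative run, which were other scalings, filters, tests and samples fitted, counts divided by their spacing, and the replicate block. Over all tested genes, libraries with the same replicate number did not deviate together (correlations across genes of -0.072 to 0.093). A shared origin that acts on few genes could not be seen this way. With the replicate block 9, 11, 15, 6 and 11 other heat stress factors were called in the 5 comparisons, as without it, and 29, 29, 34, 29 and 17 heat shock proteins, against 29, 31, 34, 27 and 16. The block ended the 12 h calls of HSP83 (CsaV3_3G017480) and an 18.1 kDa class I gene (CsaV3_1G005060). Leaving out each library gave 8 to 9, 9 to 12, 14 to 15, 4 to 8 and 9 to 12 factors (3 h, 12 h and 24 h against 0 h, 12 h against 3 h, 24 h against 12 h), and 26 to 30, 28 to 35, 34 to 35, 25 to 31 and 13 to 19 heat shock proteins. Of 52 calls of other factors 46 held under every setting that tested the gene.

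No called direction reversed. For the A-6b-like gene, limma on log2(FPKM + 1) gave 3.62 at 3 h and 1.84 at 12 h, and log2(FPKM + 5) gave 2.92, 1.32 and 1.78 at 3, 12 and 24 h against 0 h and -1.60 for 12 h against 3 h. For the A-6b gene, limma gave 5.09, 4.92 and 5.21 for 12 h and 24 h against 0 h and 12 h against 3 h, log2(FPKM + 5) gave 3.7, 3.53 and 3.74, and log2(FPKM + 0.1) gave 6.02 for the last. These pseudocounts shrink or widen the differences of low values by construction. The log2 ratio of the pair was 1.78 and 0.61 at 0 h, and 5.84 and 3.57 at 3 h, with pseudocounts of 0.1 and 5. Leaving out each library gave 3.81 to 3.97, 2.02 to 2.19, 2.54 to 2.92, -1.84 to -1.70 and 0.45 to 0.83 for the A-6b-like gene in the 5 comparisons, and -0.40 to 0.02, 5.78 to 6.20, 5.61 to 6.03, 6.08 to 6.24 and -0.22 to -0.12 for the A-6b gene. The ratio ranged from 1.24 to 1.35, 4.92 to 5.10, -2.05 to -1.83 and -1.38 to -1.0. Depth limits the A-6b gene at 0 h and 3 h, where a library held 27 to 64 fragments of it.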
